A study of Mus musculus with 12 samples.

Results

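Kinesins are motor proteins that move along microtubules, and their genes were followed here in a mouse collecting duct cell line. The genes were those whose symbol in the deposited expression table is Kif with a number and an optional letter, Kif12 included, which gave 37 of the 48034 genes in the table. The cells were IMCD3, a line from the mouse inner medullary collecting duct, in 1 subclone named 53a. As known of the study, mifepristone induces in this subclone a mutant transcription factor that acts as a dominant negative in tubule epithelium. Poly(A) RNA was sequenced in 4 groups of 3 libraries (A, B and C): mifepristone with 100 mM added NaCl, vehicle with 100 mM added NaCl, mifepristone without added NaCl, and vehicle without added NaCl. All 4 groups carry the inducible mutant, so an action of mifepristone itself was not separated from that of the mutant. Whether the 3 libraries of each group stem from separate cultures is not in the labels, and p-values therefore rest on library-to-library spread that may be technical. The mifepristone columns of the expression table are named by the mutant and were matched to the mifepristone samples by the NaCl part, the letter and knowledge of the study.

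A kinesin couples ATP hydrolysis in its motor domain to steps along a microtubule or to the removal of tubulin from its end. Some members build and divide the mitotic spindle, some carry vesicles and organelles, and heterotrimeric kinesin-2 drives anterograde intraflagellar transport, on which the primary cilium of tubule cells depends. Loss of cilia or of ciliary proteins in tubule epithelium is known to give cystic kidney disease, and Kif12 is known as a candidate modifier of cyst severity in the cpk mouse model.

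Library totals of recovered reads were 41940955 to 49270776. Of the 37 kinesin genes, 27 passed the expression filter, which asks for 1 FPKM or more (fragments per kilobase of exon, scaled to library size) in 3 or more libraries, and were tested with all 14044 genes that passed. Deviations from the group mean ran along transcript length in several libraries, with a Spearman rho across genes of -0.45 in vehicle A, -0.52 in mifepristone C and 0.46 in mifepristone A. Length here was inferred from the deposited values, as the mean normalized count per FPKM, and is not the annotated exon length. It lay above the median of the tested genes for 36 of 36 kinesin genes with such a length, so these trends touch the family. All 6 epithelial markers were expressed, whereas 2 of 8 principal cell markers and 1 of 6 intercalated cell markers reached 1 FPKM in any library, and Aqp2, Aqp3, Aqp4, Avpr2, Scnn1b and Scnn1g did not. Of 7 fibroblast markers, 1 reached 1 FPKM. Summed FPKM of the principal cell markers ran from 10.7 to 12 in mifepristone and from 1.02 to 1.14 in vehicle libraries with NaCl, and from 10.1 to 11.1 in mifepristone and from 2.29 to 2.51 in vehicle libraries without NaCl. Summed FPKM of the fibroblast markers ran from 3.01 to 3.44 in mifepristone and from 0.240 to 0.318 in vehicle libraries with NaCl, and from 5.65 to 6.34 in mifepristone and from 0.258 to 0.354 in vehicle libraries without NaCl. No marker of these lists was at 0 in every library, and the part of such marker changes in the kinesin values was not tested. In bulk RNA, fewer cells of a kind and less RNA per cell cannot be told apart.

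More kinesin genes were lower than higher under mifepristone, both with and without NaCl. With NaCl, limma on log2(FPKM + 0.5) called 19 of 27 members, 3 of them higher and 16 lower (adjusted p under 0.05), against 58.7% of all tested genes called (26.8% higher and 31.9% lower). Without NaCl it also called 19, 5 higher and 14 lower, against 59.7% of all tested genes (28.3% higher and 31.5% lower). The median log2 fold change was -0.20 over the members and -0.03 over all tested genes with NaCl, and -0.20 against -0.01 without NaCl. The members lower in both comparisons numbered 12, and Kif1c, Kif21a and Kif21b were higher in both. Their group means come from separate libraries, but the tests share an estimate of each gene's spread and are not fully independent. Kif14, Kif18b, Kif20a and Kif3b were called in neither. With at least a 1.5-fold change required, 5 members remained called with NaCl (1 higher, 4 lower) against 16.8% of all tested genes (8.94% higher and 7.83% lower), and 6 without NaCl (2 higher, 4 lower) against 16.1% (8.93% higher and 7.19% lower). The other called members moved by less than 1.5-fold, and 7 genes made up the larger changes, namely Kif12, Kif7, Kif9, Kif24, Kif13b, Kif21a and Kif21b. Of these, Kif7 passed the filter through vehicle libraries without NaCl alone, Kif9 needed its vehicle libraries to pass, and Kif21a and Kif21b passed through mifepristone libraries alone, so the counts over tested members describe the family and are not independent support.

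**Figure D1:**
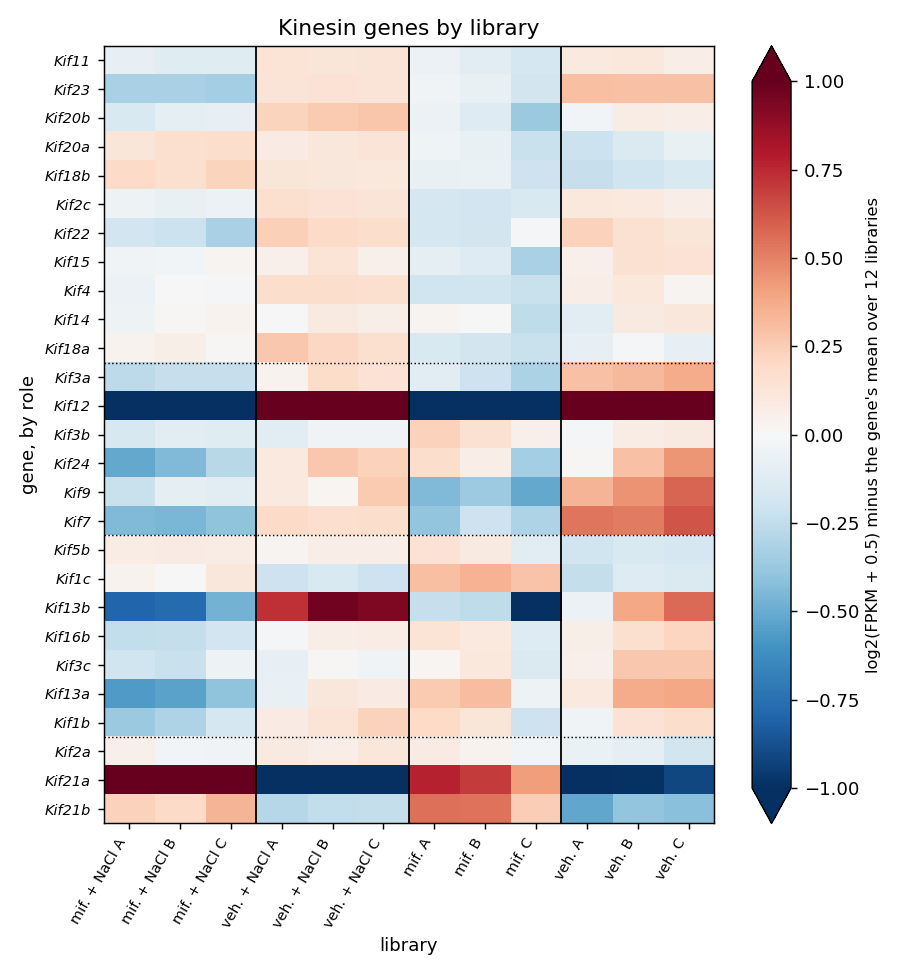
Heat map of the 27 tested kinesin genes (rows, grouped by role from spindle at the top through cilium and cargo to microtubule dynamics) in the 12 libraries (columns, mifepristone left of vehicle, NaCl left of no NaCl). Colour is log2(FPKM + 0.5) minus the gene's mean over the 12 libraries, clipped at 1 on either side. Kif12 and Kif21a separate all mifepristone from all vehicle libraries, in opposite directions. Other genes do so by smaller amounts, among them Kif11 and Kif23 (lower) and Kif1c and Kif21b (higher).

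Kif12 fell further than nearly any gene measured. With NaCl, Kif12 had 1.06, 0.806 and 0.929 FPKM in mifepristone libraries, against 19.2, 19.0 and 17.8 FPKM in vehicle libraries. Without NaCl it had 1.0, 1.03 and 0.980 FPKM in mifepristone libraries, against 15.1, 15.4 and 15.1 FPKM in vehicle libraries. The mifepristone and vehicle libraries were far apart in both settings, and no value lay between 1.06 and 15.1 FPKM. With NaCl the gene averaged 0.932 ± 0.127 FPKM under mifepristone and 18.6 ± 0.786 FPKM under vehicle (SD, n = 3 each). On log2(FPKM + 0.5) this was a 13.4-fold fall (log2 fold change -3.74 ± 0.0590 SE, limma adjusted p 4.20e-12). Folds on this scale understate changes to such low levels. By voom on recovered reads, Kif12 fell 19.5-fold with NaCl and 15.1-fold without. Without NaCl Kif12 averaged 1.01 ± 0.0271 FPKM under mifepristone and 15.2 ± 0.170 FPKM under vehicle (SD, n = 3 each), with a log2 fold change of -3.38 (limma adjusted p 7.55e-12). Among the 14044 tested genes this log2 fold change ranked 3 from the lowest with NaCl and 2 from the lowest without. Over the 24 alternative settings it ran from -4.28 to -3.35 with NaCl and from -3.92 to -3.01 without. Recovered reads for Kif12 came to 165, 115 and 158 in mifepristone libraries with NaCl and 155, 166 and 165 in those without, so the low level is a measured one and not a 0. The vehicle level without NaCl stood at the 67.1 percentile of tested genes, above the middle of the range.

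Added NaCl raised Kif12 in vehicle cells and its difference in mifepristone cells did not pass. The log2 fold change was 0.29 ± 0.0590 SE in vehicle cells (limma adjusted p 0.00168) and -0.08 ± 0.0590 SE in mifepristone cells (limma adjusted p 0.287). The mifepristone effect with NaCl minus that without was -0.36 on the log2 scale (interaction adjusted p 0.00719 by limma), which passed in each of the 23 alternative settings that give an interaction. In mifepristone cells the NaCl change passed in 2 settings, at -0.20 after quantile normalization and at -0.14 without mifepristone + NaCl A.

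The Kif12 gene lies at chr4:63165630-63172131, minus strand (GRCm38, GENCODE M21), with 14 exon blocks that sum to 3402 bases. The authors' deposited tables mark a nearby ChIP peak for it. The 250 bases before its RefSeq start (chr4:63172132-63172381, minus strand, GRCm38.p6) are shown here beside those of Kif27 (chr13:58354948-58355197, minus strand), a ciliary kinesin below the expression filter. Kif27 reads were lower under mifepristone without NaCl, and the groups overlapped with NaCl. Of the 31 members in the RefSeq table, only Kif12 and Kif27 come within 2 differences of the palindrome GTTAATNATTAAC. That palindrome is known to be bound by homeodomain factors of kidney tubule and liver epithelium. Capitals mark the closest match in each.
Kif12: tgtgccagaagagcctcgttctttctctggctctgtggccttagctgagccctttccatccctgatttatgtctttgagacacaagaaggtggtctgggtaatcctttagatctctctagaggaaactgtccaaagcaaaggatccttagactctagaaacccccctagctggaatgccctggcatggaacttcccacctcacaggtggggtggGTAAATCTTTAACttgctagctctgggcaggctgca
Kif27: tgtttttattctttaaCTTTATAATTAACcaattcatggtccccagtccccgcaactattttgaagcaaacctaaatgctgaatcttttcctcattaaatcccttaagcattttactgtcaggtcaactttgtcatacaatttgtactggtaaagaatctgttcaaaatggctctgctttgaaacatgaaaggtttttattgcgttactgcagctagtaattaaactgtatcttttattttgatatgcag
Both strands of each promoter were searched. The exact palindrome was found in 0 of 35 promoters of the 31 members in the RefSeq table, and in 3 of 32851 promoters of the table (0.00913%). Counted from 1 at the first letter of the palindrome, the Kif12 match differs from it by T3A and A8T, and the Kif27 match by G1C and A4T. Matches with at most 2 differences over the 12 fixed letters occurred in 2 of 35 member promoters and in 1.24% of all promoters, a tolerance chosen after these sequences were seen. Kif1a and Kif2c each had a promoter with 3 differences. The 6 letters GTTAAT occurred in 4 of 35 member promoters (Kif27, Kif5c and both starts of Kif9) and in 6.43% of all. Kif27 carries no peak mark in the authors' deposited tables, and its RefSeq start lies inside the longer GENCODE span of the gene (chr13:58287502-58359122, minus strand). A match of letters is a description of the window and not a binding site.

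The 5 tested genes most like Kif12 across the 12 libraries, by Pearson correlation of log2(FPKM + 0.5), were Rasl12 (0.9991), Jag1 (0.9975), Sult1c2 (0.9974), Nfxl1 (0.9962) and Adgrg1 (0.9944). Libraries of a group share their treatment, so these correlations mostly restate the 4 group means. Jag1, a Notch ligand, averaged 1.45 FPKM under mifepristone and 7.35 FPKM under vehicle with NaCl. Sult1c2, a cytosolic sulfotransferase, was the one closest to Kif12 in size of change, with log2 fold changes of -3.29 with NaCl and -3.20 without. Jag1, Sult1c2, Nfxl1 and Adgrg1 carry the authors' nearby-peak mark, as does Kif12, and Rasl12 does not. Of all tested genes, 28.4% carry it. The 5 genes were picked from these same data, so their marks are a description and not independent support.

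**Figure D2:**
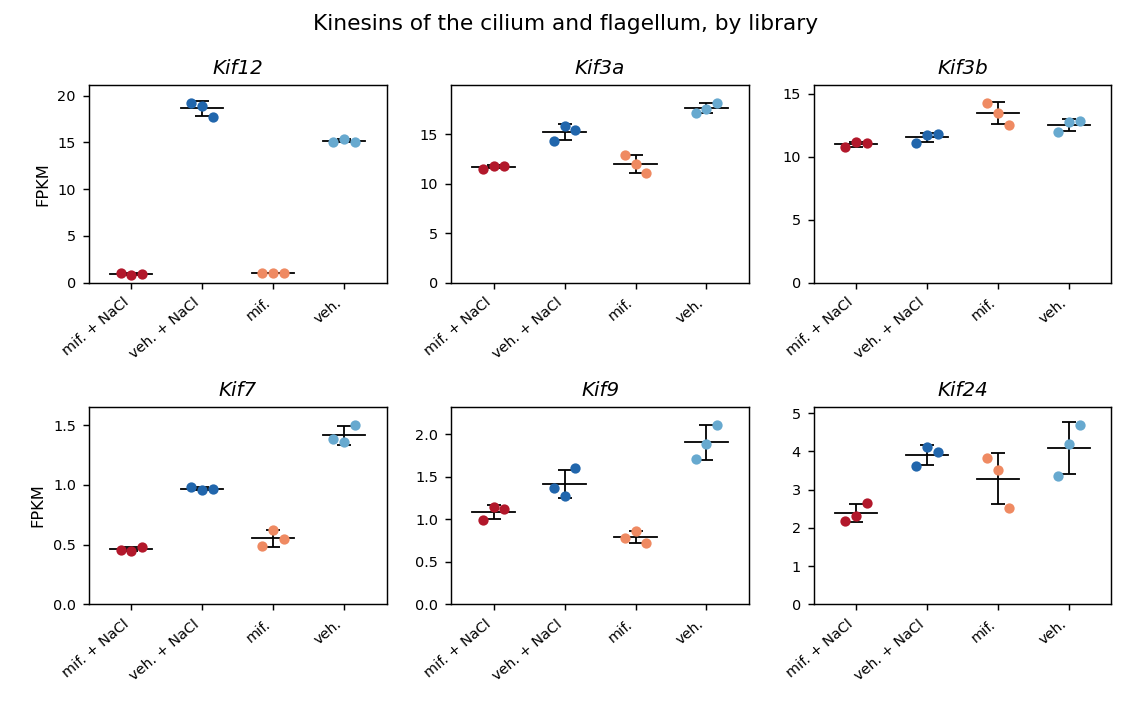
FPKM of the 6 tested ciliary kinesins by library (linear axes from 0). Points are libraries A, B and C of each group (mifepristone + NaCl, vehicle + NaCl, mifepristone, vehicle), the long line is the mean and the bar is ± SD (n = 3). Kif12, Kif3a, Kif7 and Kif9 are lower in all mifepristone libraries than in the vehicle libraries of the same NaCl setting, and Kif3b is not.

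Most tested ciliary kinesins were lower under mifepristone, Kif12 among them. Of the 6 tested, 5 were lower and 0 higher under mifepristone with NaCl (median log2 fold change -0.49), against 31.9% and 26.8% of all tested genes. Without NaCl 4 were lower and 0 higher (median -0.70), against 31.5% and 28.3%. Kif7 passed the filter through vehicle libraries without NaCl alone, and Kif9 needed its vehicle libraries to pass. These counts and medians therefore describe the tested set and are not independent support. The counts higher were also 0 at an unadjusted p under 0.05 and by voom, and without vehicle A and mifepristone C 1 was higher and 5 were lower without NaCl. Kif3a and Kif3b are the motor subunits of heterotrimeric kinesin-2, the anterograde motor of intraflagellar transport. With NaCl, Kif3a had 11.5, 11.8 and 11.8 FPKM in mifepristone libraries, against 14.3, 15.8 and 15.4 FPKM in vehicle libraries. Without NaCl it had 12.9, 12 and 11.1 FPKM in mifepristone libraries, against 17.1, 17.6 and 18.1 FPKM in vehicle libraries. The Kif3a groups did not overlap in either setting, and the log2 fold changes were -0.36 with NaCl and -0.54 without (limma adjusted p 1.62e-04 and 7.12e-06). Its partner Kif3b ran from 10.8 to 11.1 FPKM under mifepristone and from 11.1 to 11.8 FPKM under vehicle with NaCl, and from 12.5 to 14.3 FPKM under mifepristone and from 11.9 to 12.9 FPKM under vehicle without NaCl. Those ranges touch or overlap, and neither difference passed (log2 fold changes -0.07 and 0.10, limma adjusted p 0.249 and 0.105). In group means, Kif3b averaged 13.4 FPKM and Kif3a 12 FPKM under mifepristone without NaCl, against 12.5 FPKM for Kif3b and 17.6 FPKM for Kif3a under vehicle without NaCl.

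Kif7, the kinesin that organises the ciliary tip for Hedgehog signalling, fell at a low level. Kif7 had 0.457, 0.447 and 0.479 FPKM in mifepristone libraries with NaCl, against 0.982, 0.956 and 0.966 FPKM in vehicle libraries with NaCl. Its values without NaCl were 0.485, 0.623 and 0.546 FPKM under mifepristone, against 1.38, 1.36 and 1.5 FPKM under vehicle. No mifepristone value reached a vehicle value of the same setting, with log2 fold changes of -0.61 ± 0.0627 SE with NaCl and -0.87 ± 0.0627 SE without (limma adjusted p 7.23e-06 and 4.06e-07). Kif7 passed the expression filter only through the vehicle libraries without NaCl, in which it was highest, so its difference there is a description and supports no count of ciliary kinesins. NaCl lowered Kif7 in vehicle cells (-0.38, limma adjusted p 3.67e-04). The exons of Kif7 overlap those of Ticrr and 9330171B17Rik on the opposite strand, and reads may be shared, since strand use is not given in the sources used here.

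Kif9, a kinesin of the axoneme known for sperm motility in mice, was lower under mifepristone and answered NaCl in opposite directions. Kif9 had 0.995, 1.14 and 1.11 FPKM in mifepristone libraries with NaCl, against 1.37, 1.27 and 1.60 FPKM in vehicle libraries with NaCl. Without added NaCl its values were 0.783, 0.861 and 0.723 FPKM under mifepristone, against 1.71, 1.89 and 2.11 FPKM under vehicle. The vehicle libraries without NaCl stood highest and the mifepristone libraries without NaCl lowest. Its log2 fold change was -0.90 ± 0.0836 SE without NaCl (limma adjusted p 3.41e-06) and -0.27 ± 0.0836 SE with NaCl (limma adjusted p 0.0168). The call with NaCl was lost without mifepristone + NaCl A (adjusted p 0.0651) or without vehicle + NaCl C (adjusted p 0.0753). NaCl raised Kif9 in mifepristone cells (0.30, limma adjusted p 0.0103) and lowered it in vehicle cells (-0.33, limma adjusted p 0.00607), and the difference between these was 0.63 (interaction adjusted p 0.0024 by limma).

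Kif24, a centriolar kinesin that restrains cilium assembly, was lower with NaCl and did not pass without it. Kif24 had 2.19, 2.32 and 2.66 FPKM in mifepristone libraries with NaCl, against 3.61, 4.13 and 3.99 FPKM in vehicle libraries with NaCl. Without added NaCl its values were 3.82, 3.51 and 2.53 FPKM under mifepristone, against 3.36, 4.19 and 4.70 FPKM under vehicle. With NaCl the groups did not overlap (log2 fold change -0.61 ± 0.137 SE, limma adjusted p 0.00264). Without NaCl they overlapped (log2 fold change -0.28, limma adjusted p 0.101), and vehicle A and mifepristone C lay lowest in their groups. Without those 2 libraries this comparison passed as well (log2 fold change -0.25, adjusted p 0.0339), and the settings were not shown to differ (interaction -0.33, limma adjusted p 0.219).

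Among the 4 ciliary kinesins below the filter, Kif27 and Kif17 had enough reads for a description. Kif27 is a paralog of Kif7 known in mice for motile cilia. It had 26, 30 and 30 reads in mifepristone libraries with NaCl, against 36, 43 and 28 reads in vehicle libraries with NaCl. Kif27 without NaCl had 27, 32 and 34 reads in mifepristone libraries, against 144, 160 and 179 reads in vehicle libraries. Vehicle cells without NaCl stood alone at the high end, and the reads of all other libraries were low and overlapped. The ratio of depth-scaled reads was 0.184 for mifepristone over vehicle without NaCl (95% exact counting interval 0.146 to 0.230) and 0.214 for NaCl over no NaCl in vehicle cells (0.172 to 0.265). With all genes that had a read, limma's voom gave a log2 fold change of -2.42 for mifepristone without NaCl (adjusted p 3.43e-08) and -0.26 with NaCl (adjusted p 0.388), with an interaction of 2.16 (adjusted p 1.15e-04).

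Kif17, the homodimeric kinesin-2, was also highest in vehicle cells without NaCl. Its reads were 21, 36 and 43 under mifepristone and 33, 52 and 48 under vehicle with NaCl, and 14, 23 and 21 under mifepristone and 72, 97 and 98 under vehicle without NaCl. The groups were apart without NaCl and overlapped with NaCl (voom log2 fold changes -2.25 and -0.41, adjusted p 1.35e-05 and 0.284). Kif19a, which shortens motile cilia, and Kif6 reached at most 0.0964 and 0.0518 FPKM in any of the 12 libraries, and neither passed in any comparison by voom. Counting intervals cover counting error only, and reads may be shared between Kif27 and the overlapping Gm26555 and Mir6369, and between Kif17 and Sh2d5.

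**Figure D3:**
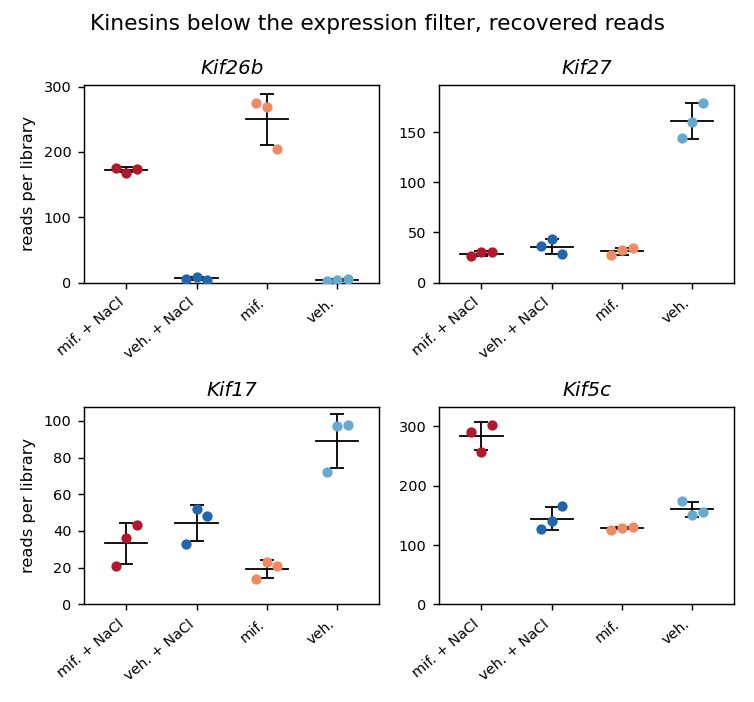
Recovered reads per library (linear axes from 0, not scaled for depth) of 4 kinesins below the expression filter. Points are libraries, the long line is the group mean and the bar is ± SD (n = 3), in the order mifepristone + NaCl, vehicle + NaCl, mifepristone, vehicle. Kif26b lies between 168 and 275 reads in mifepristone libraries and between 3 and 9 in vehicle libraries, and Kif27 is high only in vehicle libraries without NaCl.

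Partners of the ciliary kinesins, from lists chosen with earlier results known, moved as follows. Of all tested genes, 26.8% were higher and 31.9% lower under mifepristone with NaCl, and 28.3% and 31.5% without. Of 15 genes of the IFT-B complex, the cargo train of kinesin-2, 2 were higher and 9 lower under mifepristone with NaCl, and 3 higher and 12 lower without NaCl (median log2 fold changes -0.27 and -0.37). Ift88, a core subunit whose hypomorphic mutation gives cystic kidneys in mice, had -0.37 with NaCl and -0.66 without, and Ift57 had -0.52 and -0.74. Kifap3, the non-motor subunit of kinesin-2, had -0.19 with NaCl and -0.53 without. Dync2li1, a light intermediate chain of the retrograde motor, had -0.69 and -1.13. Of 6 tested Hedgehog partners of Kif7, 1 was higher and 5 lower with NaCl, and 1 higher and 4 lower without. Smo, the transducer of the pathway, had log2 fold changes of -1.01 with NaCl and -0.41 without, and Evc had -0.82 and -1.16. Gli3, the transcription factor acted on at the end of the pathway and the 1 partner that rose, had 0.98 with NaCl and 1.25 without, and was chosen for naming after its values were seen. Each of the values named here passed at an adjusted p under 0.05 by limma.

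The spindle kinesins were lower under mifepristone by small amounts. Of the 11 tested, 7 were lower and 0 higher with NaCl (median log2 fold change -0.20, range -0.46 to 0.08), against 31.9% and 26.8% of all tested genes. Without NaCl 8 were lower and 0 higher (median -0.22, range -0.39 to 0.08), against 31.5% and 28.3%. None of the 11 reached a 1.5-fold change by limma, also at an unadjusted p under 0.05. The counts higher were also 0 at an unadjusted p under 0.05, and voom called 1 higher with NaCl and 0 without. Over the alternative settings the number lower ran from 6 to 8 with NaCl and from 6 to 9 without. Without vehicle A and mifepristone C, 8 were lower and 1 higher with NaCl, and 7 lower and 1 higher without. Kif11, the tetrameric motor that pushes spindle poles apart, was the most abundant kinesin of the series in vehicle cells, at the 93.8 percentile of tested genes. With NaCl, Kif11 had 71.7, 70.0 and 70.0 FPKM in mifepristone libraries, against 83.6, 83.0 and 83.5 FPKM in vehicle libraries. Without NaCl it had 72.9, 70.7 and 67.4 FPKM in mifepristone libraries, against 81.4, 81.9 and 79.8 FPKM in vehicle libraries. The groups did not overlap in either setting, with log2 fold changes of -0.24 ± 0.0364 SE with NaCl and -0.20 ± 0.0364 SE without (limma adjusted p 1.70e-04 and 5.66e-04).

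Kif23, the motor of the centralspindlin complex of cytokinesis, showed the largest fall of the spindle group in both settings. Kif23 had 34.1, 34.2 and 33.8 FPKM in mifepristone libraries with NaCl, against 47.1, 47.4 and 46.8 FPKM in vehicle libraries with NaCl. Its values without NaCl were 41.8, 40.7 and 37.7 FPKM under mifepristone, against 52.9, 52.5 and 52.8 FPKM under vehicle. All mifepristone values lay below all vehicle values, and the log2 fold changes were -0.46 and -0.39 (limma adjusted p 9.78e-07 and 3.88e-06). Kif22, a chromokinesin, fell by 0.44 with NaCl and by 0.30 without on the log2 scale. Kif2c, a depolymerase that corrects kinetochore attachments, fell by 0.20 and 0.26, and Kif4, a chromokinesin of the midzone, fell by 0.20 and 0.27. Kif20b, a kinesin of late cytokinesis, fell by 0.36 and 0.22, and Kif18a, which damps chromosome movements at metaphase, fell by 0.18 and 0.13. The Kif18a fall with NaCl was lost after length correction (log2 fold change -0.04, adjusted p 0.524), and without NaCl the Kif18a fall was lost in 5 settings (adjusted p up to 0.094) and the Kif20b fall in 2 (up to 0.0745), among them the fit without vehicle B for both (0.0751 and 0.0539). Kif15, which can stand in for Kif11, passed without NaCl (-0.30, limma adjusted p 0.00102) and had -0.09 with NaCl (adjusted p 0.188). Kif14, Kif18b and Kif20a, the carrier of the chromosomal passenger complex to the midzone, passed in neither, with log2 fold changes between -0.11 and 0.08. Exons of Kif20a overlap Cdc23 and those of Kif4 overlap Pdzd11 on the opposite strand.

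Proliferation markers and spindle partners moved in the same direction. Of 10 proliferation markers, 7 were lower and 1 higher with NaCl, against 31.9% and 26.8% of all tested genes. Against 31.5% and 28.3% of all tested genes, 6 of these markers were lower and 0 higher without NaCl. Their summed FPKM ran from 746.4 to 762.3 in mifepristone libraries and from 962.6 to 975.9 in vehicle libraries with NaCl, and from 762.7 to 765.5 in mifepristone libraries and from 923.5 to 940.5 in vehicle libraries without NaCl, and 0 of the 10 were at 0 in every library. Of 16 spindle partners, 9 were lower and 1 higher with NaCl, and 14 lower and 1 higher without. Aurkb, the kinase of the passenger complex, had -0.28 with NaCl and -0.39 without, Bub1b had -0.67 and -0.30, and Rrm2, a ribonucleotide reductase subunit of S phase, had -0.60 and -0.60. Whether the share of cycling cells differed between groups was not tested.

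Promoters of cell-cycle genes are known to carry CHR elements (TTTGAA) and CCAAT boxes. The 250 bases before the RefSeq starts of Kif11 (chr19:37376132-37376381, plus strand) and Kif22 (chr7:127042421-127042670, minus strand, GRCm38.p6) are shown because each holds both and fell in both settings. Kif14, which passed in neither setting, Kif26b, which was higher in both, and Kif27 hold both as well. Capitals mark TTTGAA and CCAAT on either strand.
Kif11: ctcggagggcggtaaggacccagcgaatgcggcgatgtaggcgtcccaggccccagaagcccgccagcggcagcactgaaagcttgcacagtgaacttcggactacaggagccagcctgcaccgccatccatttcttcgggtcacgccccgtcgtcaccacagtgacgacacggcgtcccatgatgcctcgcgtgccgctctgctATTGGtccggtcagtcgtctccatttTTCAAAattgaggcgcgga
Kif22: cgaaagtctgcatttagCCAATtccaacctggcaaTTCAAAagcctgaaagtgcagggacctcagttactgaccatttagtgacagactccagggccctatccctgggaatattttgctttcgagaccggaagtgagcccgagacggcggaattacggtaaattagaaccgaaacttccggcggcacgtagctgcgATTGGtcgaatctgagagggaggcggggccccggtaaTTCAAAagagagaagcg
TTTGAA occurred on either strand in 8 of 35 member promoters, against 16.0% of all 32851 promoters, and CCAAT in 15 of 35, against 33.9% of all. The pair was chosen for holding both motifs and for its fall, so it says nothing of how often the motifs occur in the family. A link of the motifs with the fall was not tested.

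The cargo kinesins did not move together. Of the 7 tested, 1 was higher and 4 lower under mifepristone with NaCl, against 26.8% and 31.9% of all tested genes. Without NaCl 2 were higher and 2 lower, against 28.3% and 31.5%. Kif5b, the ubiquitous heavy chain of conventional kinesin and the most abundant of the group, had 42.7, 42.9 and 42.7 FPKM in mifepristone libraries with NaCl, against 41.3, 42.4 and 42.6 FPKM in vehicle libraries with NaCl. Its values without NaCl were 44.8, 43.3 and 37.7 FPKM under mifepristone, against 35.1, 36.3 and 36.0 FPKM under vehicle. The groups were apart without NaCl (log2 fold change 0.22 ± 0.0537 SE, limma adjusted p 0.00445), and the difference with NaCl was 0.02 (adjusted p 0.755). Kif1c, a fast vesicle motor, averaged 35.0 ± 1.43 FPKM under mifepristone and 29.7 ± 0.705 FPKM under vehicle with NaCl, and 42.1 ± 0.925 FPKM under mifepristone and 30.1 ± 1.20 FPKM under vehicle without NaCl (SD, n = 3 each). It was higher in both settings, by 0.23 and 0.48 on the log2 scale (limma adjusted p 5.19e-04 and 1.73e-06).

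Kif13b, a motor that binds the polarity protein Dlg1, had the widest spread within groups of any tested kinesin named here. With NaCl, Kif13b had 9.39, 9.56 and 11.9 FPKM in mifepristone libraries, against 27.9, 32.9 and 32.2 FPKM in vehicle libraries. Without NaCl it had 14.1, 13.9 and 8.02 FPKM in mifepristone libraries, against 15.9, 21.9 and 24.9 FPKM in vehicle libraries. The groups did not overlap with NaCl, and without NaCl the lowest vehicle library, A, stood just above the highest mifepristone library, also A. The log2 fold change was -1.55 ± 0.211 SE with NaCl (limma adjusted p 7.19e-05) and -0.79 ± 0.211 SE without (adjusted p 0.00722). NaCl raised it in vehicle cells by 0.58 (adjusted p 0.0363), which was lost without vehicle A (log2 fold change 0.40, adjusted p 0.143), vehicle B (0.62, 0.0582), vehicle + NaCl B (0.53, 0.0983) or vehicle + NaCl C (0.55, 0.0913). The call was also lost with no filter on low values (adjusted p 0.085) and with the replicate block (adjusted p 0.0587). Vehicle A and mifepristone C, the libraries with the strongest negative length trends, were the lowest of their groups for Kif13b, which has 13017 exonic bases at chr14:64647265-64809617, plus strand. The part of length in these values was not tested beyond the length correction, under which both falls kept an adjusted p under 0.05.

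Kif13a, which carries cargo to recycling endosomes, stood lowest in cells with both treatments. Kif13a had 2.51, 2.59 and 2.88 FPKM in mifepristone libraries with NaCl, against 3.73, 4.33 and 4.22 FPKM in vehicle libraries with NaCl. Its values without NaCl were 4.86, 5.04 and 3.81 FPKM under mifepristone, against 4.28, 5.26 and 5.33 FPKM under vehicle. The mifepristone libraries with NaCl lay below all others. NaCl lowered it in mifepristone cells (log2 fold change -0.67 ± 0.106 SE, limma adjusted p 2.42e-04), and mifepristone lowered it with NaCl (-0.54, adjusted p 0.00112). The other values were -0.25 for NaCl in vehicle cells (adjusted p 0.0695) and -0.11 for mifepristone without NaCl (adjusted p 0.397), and the interaction of -0.43 stood just above the threshold (adjusted p 0.0509). Kif16b, a motor of early endosomes, and Kif1b, a motor of mitochondria and synaptic vesicle precursors, fell under mifepristone with NaCl by 0.27 and 0.43 on the log2 scale, and had -0.11 and -0.06 without NaCl (limma adjusted p 0.189 and 0.654). Kif3c, a kinesin-2 subunit, had -0.20 without NaCl (adjusted p 0.0459), a call lost in 14 of the 23 settings that tested it. Of its 7406 exonic bases, 3205 overlap the antisense Gm48512 and 1110002L01Rik, so its reads may be shared with them. Smaller antisense overlaps of 324 bases in Kif5b and 96 bases in Kif22 carry the same limit.

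The filter left out 3 further cargo kinesins. Kif5c, the neuronal heavy chain, had 290, 257 and 303 reads in mifepristone libraries with NaCl, against 127, 141 and 165 reads in vehicle libraries with NaCl. Its reads without NaCl were 126, 129 and 130 reads in mifepristone libraries, against 175, 151 and 156 reads in vehicle libraries. Cells with both treatments stood alone at the high end (voom log2 fold change for mifepristone 1.0 with NaCl and -0.38 without, interaction 1.38, adjusted p 2.73e-05). Kif5a, another neuronal heavy chain, summed to 99 reads in mifepristone libraries with NaCl, 63 in vehicle libraries with NaCl, 40 in mifepristone libraries without NaCl and 32 in vehicle libraries without NaCl. NaCl raised it in mifepristone cells (voom log2 fold change 1.37, adjusted p 0.00376). Kif1a, a neuronal vesicle motor, had between 0 and 1 reads in each library, and Kif2b of the spindle group had 0 reads in all 12, which allows up to 3 reads or 0.061 to 0.072 reads per 1000000 in a library.

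**Figure D4:**
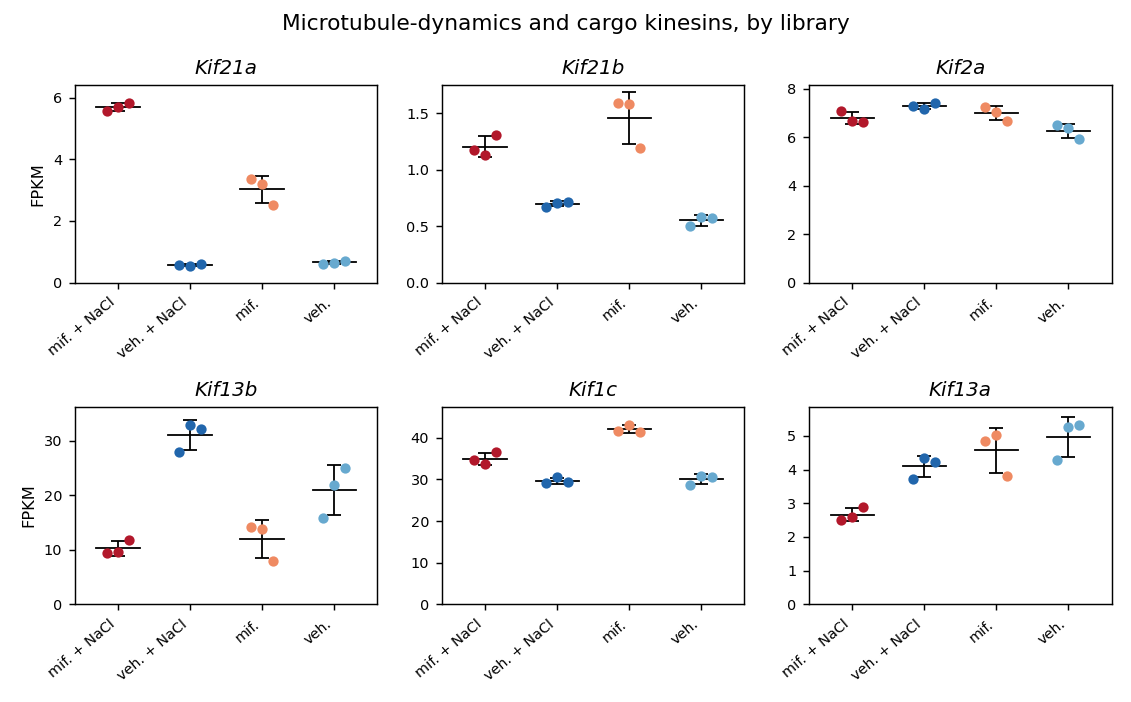
FPKM of 6 kinesins of microtubule dynamics and cargo transport by library (linear axes from 0). Points are libraries, the long line is the group mean and the bar is ± SD (n = 3), in the order mifepristone + NaCl, vehicle + NaCl, mifepristone, vehicle. Kif21a is highest in mifepristone libraries with NaCl, Kif13b is lowest under mifepristone, and Kif13a is lowest in mifepristone libraries with NaCl.

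Of the 3 tested kinesins of microtubule dynamics, 2 were higher under mifepristone with NaCl and all 3 without, against 26.8% and 28.3% of all tested genes. Kif21a and Kif21b passed the filter through mifepristone libraries alone, so these counts are not independent support. Kif21a, which pauses microtubule growth at the cell cortex, showed the largest rise among tested members. With NaCl, Kif21a had 5.56, 5.70 and 5.83 FPKM in mifepristone libraries, against 0.560, 0.536 and 0.602 FPKM in vehicle libraries. Without NaCl it had 3.37, 3.20 and 2.53 FPKM in mifepristone libraries, against 0.606, 0.645 and 0.708 FPKM in vehicle libraries. Every mifepristone library was above every vehicle library, and the mifepristone libraries with NaCl were above those without. The rise was 5.81-fold with NaCl (log2 fold change 2.54 ± 0.0823 SE, limma adjusted p 5.68e-10) and 3.05-fold without (log2 fold change 1.61 ± 0.0823 SE, adjusted p 2.50e-08). These log2 fold changes ranked 49 and 174 from the highest of the 14044 tested genes. The gene lies at chr15:90933276-91049948, minus strand, and the authors' deposited tables mark a nearby peak for it. Kif21a passed the filter through the mifepristone libraries, since its vehicle values were below 1 FPKM, and folds on this scale understate changes from such levels.

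Its paralog Kif21b rose less. Kif21b had 1.17, 1.13 and 1.31 FPKM in mifepristone libraries with NaCl, against 0.673, 0.706 and 0.712 FPKM in vehicle libraries with NaCl. In cells without NaCl its values were 1.59, 1.59 and 1.19 FPKM under mifepristone, against 0.498, 0.585 and 0.569 FPKM under vehicle. The groups did not overlap in either setting (log2 fold changes 0.51 ± 0.0856 SE with NaCl and 0.89 ± 0.0856 SE without, limma adjusted p 3.64e-04 and 4.34e-06). Kif21b was also below 1 FPKM in all vehicle libraries. Kif2a, a depolymerase of interphase and spindle microtubules and the most abundant of this group in vehicle cells, had 7.06, 6.67 and 6.64 FPKM in mifepristone libraries with NaCl, against 7.27, 7.16 and 7.41 FPKM in vehicle libraries with NaCl. Kif2a without NaCl had 7.25, 7.01 and 6.68 FPKM under mifepristone, against 6.48, 6.38 and 5.93 FPKM under vehicle. The small rise without NaCl (0.15, limma adjusted p 0.0146) was lost without mifepristone A (adjusted p 0.0565), without vehicle C (adjusted p 0.061) and in the fit of these groups only (adjusted p 0.0652), and the difference with NaCl was -0.09 (adjusted p 0.088). Exons of Kif2a overlap Dimt1 on the opposite strand.

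Kif26b, an unconventional kinesin required for kidney formation in mouse embryos, was almost silent in vehicle cells. It had 176, 168 and 174 reads in mifepristone libraries with NaCl, against 6, 9 and 4 reads in vehicle libraries with NaCl. In the absence of NaCl, Kif26b had 275, 269 and 205 reads in mifepristone libraries, against 3, 4 and 6 reads in vehicle libraries. The 2 sets were far apart in both settings, although the level in mifepristone cells was at most 0.412 FPKM. The ratio of depth-scaled reads was 27.7 with NaCl (95% exact counting interval 17.6 to 46.5) and 55.1 without (32.0 to 103.9). The voom log2 fold changes were 4.76 and 5.65 (adjusted p 1.63e-07 and 7.60e-08). The authors' deposited tables mark a nearby peak for the gene, which lies at chr1:178529125-178939200, plus strand, and overlaps exons of the antisense Gm16564. Kif26a, the other unconventional member, summed to 11 reads in mifepristone libraries with NaCl and 7 in vehicle libraries with NaCl, and to 0 in mifepristone libraries and 1 in vehicle libraries without NaCl.

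Motors and subunits outside the numbered series were mostly lower under mifepristone as well. Of 11 tested, 8 were lower with NaCl, against 31.9% of all tested genes, and 7 without, against 31.5%. The kinesin light chains Klc1 and Klc2, which tie Kif5 heavy chains to cargo, had -0.59 and -0.56 with NaCl and -0.43 and -0.44 without. Klc3 fell with NaCl instead, by 1.03 in mifepristone cells and 1.1 in vehicle cells. Of 10 tested cargo adaptors, 3 were higher and 4 lower under mifepristone with NaCl, and 6 higher and 2 lower without, led by Trak2, a mitochondrial adaptor, at 1.64 and 1.91. Of 19 tested genes of dynein and dynactin, the minus-end motor, 4 were higher and 3 lower with NaCl, and 5 higher and 6 lower without. Of all tested genes, 26.8% were higher and 31.9% lower with NaCl, and 28.3% and 31.5% without.

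Among the 27 members above the filter, most changes with added NaCl were under 1.5-fold. In mifepristone cells 8 members were higher and 7 lower, against 58.7% of all tested genes called (24.5% higher and 34.2% lower), and in vehicle cells 9 were higher and 5 lower, against 56.7% (25.2% higher and 31.5% lower). The median log2 fold change was -0.04 over the members and -0.06 over all tested genes in mifepristone cells, and 0.03 against -0.02 in vehicle cells. At 1.5-fold or more, Kif21a was higher and Kif13a lower in mifepristone cells, against 14.8% of all tested genes (7.66% higher and 7.18% lower), and 0 members passed in vehicle cells by limma (also 0 at an unadjusted p under 0.05, and 1 by voom), against 13.0% (6.5% higher and 6.51% lower). The split of calls in vehicle cells moved with the scaling, from 9 higher and 5 lower to 9 and 9 after length correction and to 7 and 7 with voom on recovered reads.

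Spindle kinesins were those called higher most often with NaCl, 6 of 11 in mifepristone cells and 5 of 11 in vehicle cells, with 1 lower in each. Of all tested genes, 24.5% were higher and 34.2% lower in mifepristone cells, and 25.2% and 31.5% in vehicle cells. Kif18b, a plus-end depolymerase, rose by 0.31 in mifepristone cells and 0.31 in vehicle cells on the log2 scale, Kif20a by 0.27 and 0.25, Kif18a by 0.23 and 0.27, and Kif4 by 0.18 and 0.11. Kif23 fell in both, by 0.23 and 0.16. Kif2c rose by 0.11 and Kif15 by 0.17 in mifepristone cells, and Kif20b by 0.21 in vehicle cells, while Kif11 had 0.01 and 0.04 without passing in either. Among ciliary kinesins, Kif3b fell by 0.28 and Kif24 by 0.38 in mifepristone cells, and Kif3a fell by 0.21 in vehicle cells. Kif2a and Kif5b rose in vehicle cells, by 0.20 and 0.23. In mifepristone cells the Kif24 call was lost in 8 settings, that of Kif15 in 4 (adjusted p up to 0.0783) and that of Kif2c in 1 (0.0512). In vehicle cells the Kif20b call was lost in 4 settings (adjusted p up to 0.0749) and that of Kif4 in 1 (0.124). Cargo kinesins were called lower in 4 of 7 cases in mifepristone cells and in 1 of 7 in vehicle cells, against 34.2% and 31.5% of all tested genes.

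**Figure D5:**
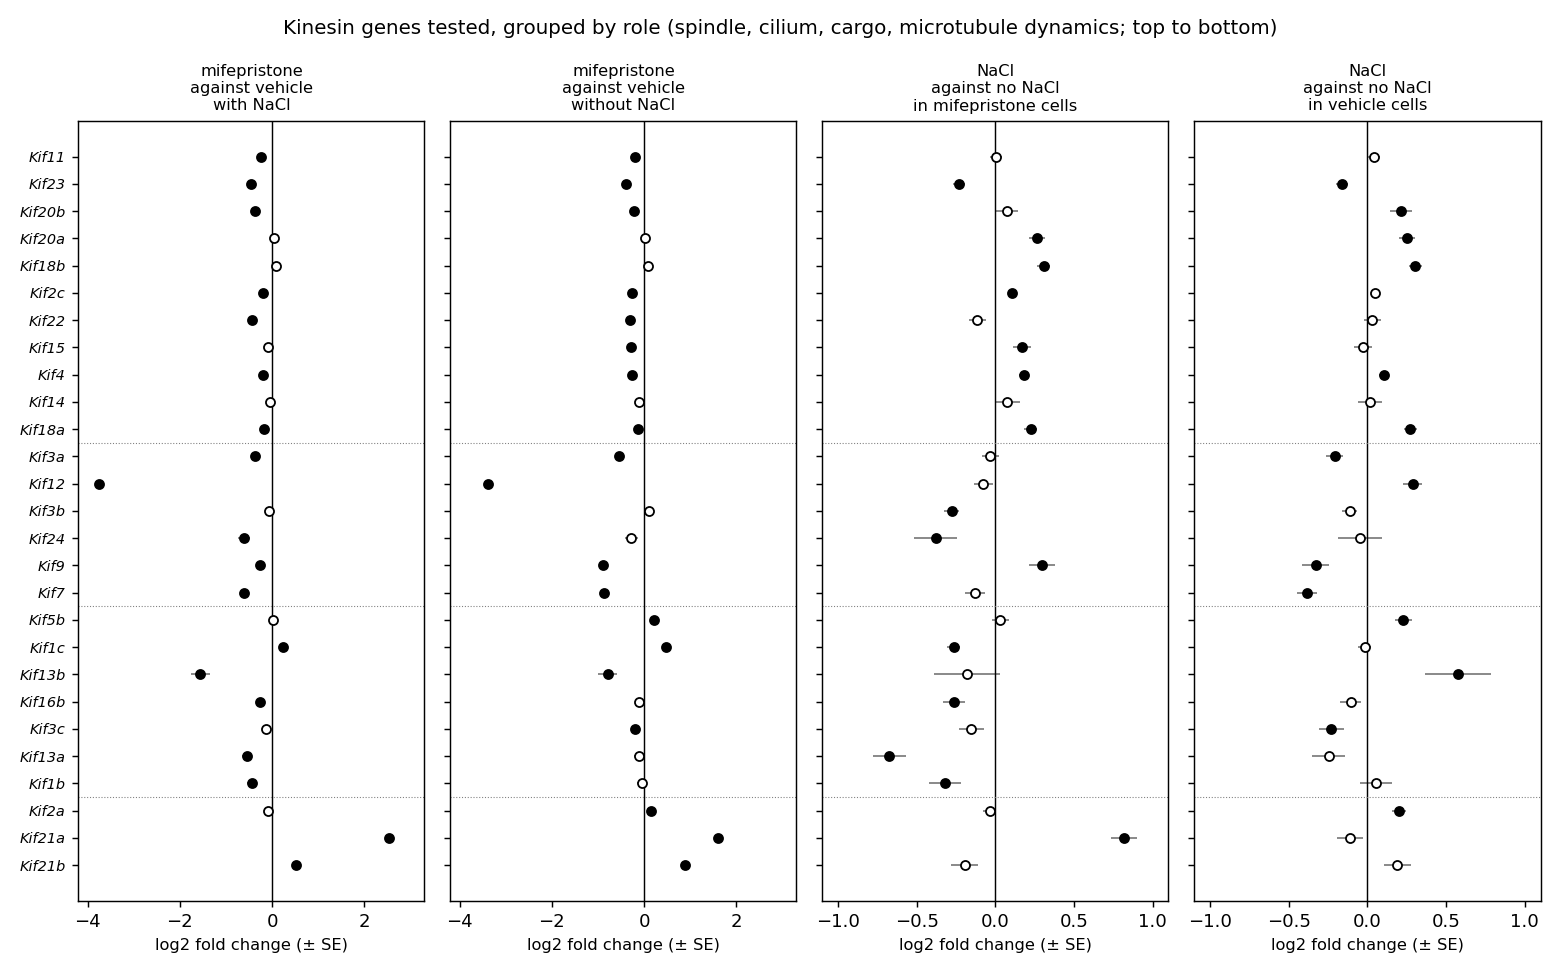
Log2 fold changes of the 27 tested kinesins from limma, with bars of ± SE, in 4 comparisons (first 2 panels on one scale, last 2 on a narrower one). Filled points passed at an adjusted p under 0.05 and open points did not. Dotted lines separate spindle, cilium, cargo and microtubule-dynamics kinesins, and Kif12 at -3.74 and -3.38 and Kif21a at 2.54 and 1.61 stand farthest from 0.

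The effect of mifepristone differed between the NaCl settings for 7 of 27 members, 3 higher and 4 lower with NaCl than without, against 31.1% of all tested genes (13.6% higher and 17.5% lower). Kif21a rose more with NaCl, by 0.93 (SE 0.116, limma adjusted p 1.76e-04), and Kif9 fell less, by 0.63. These were the 2 members past 1.5-fold, against 7.3% of all tested genes (3.6% higher and 3.7% lower). Kif1c had -0.25 (adjusted p 0.00879), Kif2a -0.24 (0.0138) and Kif21b -0.38 (0.034), and Kif7 at 0.25 stood at the threshold (0.0497). The spindle kinesins had 0 of 11 calls here by limma, 1 at an unadjusted p under 0.05 and 1 by voom. Across all genes the interaction ran with transcript length (Spearman rho -0.30 across 14044 genes, which are not independent replicates), and the kinesins are mostly long genes. The split of member calls was 3 higher and 4 lower in the fit reported here, 6 higher and 1 lower after length correction, and 6 higher and 5 lower after quantile normalization, and the cause of these differences was not tested. Without mifepristone C the number of members called was 15, when 48.3% of all tested genes were called, against 31.1% with that library.

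In the authors' deposited table of the mutant against its control, 6 of 35 kinesins had an adjusted p under 0.05, against 3.88% of all 23374 genes with a value. In that table Kif12 had a log2 fold change of -3.88, Kif27 -2.33, Kif17 -2.06, Kif21b 1.38, Kif21a 2.18 and Kif26b 4.94. The interaction column of the authors' deposited table gives an adjusted p of 1 for each of the 7 kinesins with an interaction call by limma here, and its lowest value among 34 kinesins is 0.145, for Kif27. The authors' columns may rest on unlike tests. Kif9 had a log2 fold change of -1.25 with an adjusted p of 0.964 for the mutant, but -0.42 with 0.00145 for NaCl in control cells. Their adjusted p-values are therefore not set against limma's as like for like. The authors' deposited tables mark a nearby peak for 11 of 36 kinesins, namely Kif12, Kif13b, Kif14, Kif16b, Kif21a, Kif24, Kif26b, Kif2a, Kif3c, Kif5c and Kif6. Among tested genes the mark stood on 29.6% of kinesins (8 of 27) and on 28.4% of all, so the family was marked about as often as other expressed genes. Marked members moved in both directions under mifepristone, with Kif12 and Kif13b lower and Kif21a and Kif26b higher in both settings.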

How the data were processed

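The authors deposited FPKM values per gene and library, and tables with a mean normalized count (a signal), log2 fold changes and adjusted p-values of their own comparisons, per the file headers. The submitters' processing notes name Trimmomatic 0.32, STAR 2.4.2a, SAMtools 1.0, DESeq2 1.12.3 and GRCm38 (mm10) without saying what each was used for. Which program counted reads, with which annotation, and whether strand was used is not given in the sources used here. Results for the mutated factor itself are not reported here.

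All genes that reached 1 FPKM in 3 or more libraries were tested with limma 3.58.1 in R 4.3.3 (trended, robust empirical Bayes) on log2(FPKM + 0.5). The model had 4 group means over all 12 libraries, with 8 residual degrees of freedom. The fold changes given refer to log2(FPKM + 0.5) and so understate those of low genes. Adjustment followed Benjamini and Hochberg over all genes tested, and a gene was called at an adjusted p under 0.05. The interaction is the mifepristone effect with NaCl minus that without. Reads were recovered from FPKM and the mean normalized counts, and 100% of a library's values came out whole (tolerance 0.05). They served depth, members below the filter (voom on all 32627 genes with a value above 0, chosen after seeing the data) and an alternative fit. A count of 0 allows up to 3 reads, and ratios of reads have exact 95% counting intervals. The fit was tested on simulated data.

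The kinesin genes were those whose symbol follows the naming rule, and all are named or counted. The full 12 values are given for Kif12, for members called at 1.5-fold or more and for the most abundant of each role, and further members with their values were chosen after these were seen. Other genes are named from lists, at most 4 a list by smallest adjusted p. The members and lists were chosen with earlier results of these data known. The closing section gives the effect of 24 alternative settings. Gene coordinates come from GENCODE M21 on GRCm38, and promoters, 250 bases before the start, from RefSeq on GRCm38.p6. The tables and figures were made with Python 3.11.15, numpy 2.4.6, pandas 2.3.3, scipy 1.17.1 and matplotlib 3.10.9.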

Additional observations from a re-analysis of the deposited data

Results flagged for a closer look

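For 7 kinesins the effect of mifepristone differed between cells with and without NaCl by limma's interaction test, which is what marked them here. The effect with NaCl minus that without was 0.93 on the log2 scale for Kif21a, 0.63 for Kif9 and 0.25 for Kif7. It was -0.36 for Kif12, -0.25 for Kif1c, -0.38 for Kif21b and -0.24 for Kif2a. The interaction values of Kif12, Kif21a and Kif9 kept their call in each setting that gave one. The Kif7 call was lost in 19 settings, that of Kif21b in 12, that of Kif1c in 2 and that of Kif2a in 1, the length correction (adjusted p 0.213). Over all tested genes the interaction ran with transcript length, whose part in these values was not tested beyond that correction. The authors' deposited table gives an interaction adjusted p of 1 for all 7, by a test that may differ from limma's.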

How the results depend on the processing

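Over 24 settings, 55 of the 74 called results of single members kept their call and direction in every setting that tested them. With a mean FPKM of at least 5, which left 18 members tested, 2 members were called at 1.5-fold or more without NaCl and 2 with NaCl, 11 were called under mifepristone with NaCl, 9 for NaCl in mifepristone cells with 0 at 1.5-fold, and 3 for the interaction. A pseudocount of 1 left 3 at 1.5-fold under mifepristone with NaCl. For NaCl in vehicle cells, 1 member reached 1.5-fold with median-ratio scaling, no filter, a pseudocount of 0.1 or voom, and 0 to 1 with single libraries left out (1 without vehicle + NaCl A or vehicle C). The interaction calls numbered 11 after quantile normalization (6 higher and 5 lower), 5 to 15 with single libraries left out (15 without mifepristone C, when 48.3% of all tested genes were called), 16 with vehicle A and mifepristone C both left out, and 11 without vehicle A, mifepristone A and mifepristone C together, a setting chosen after seeing the data. The cause was not tested. Kif1b turned from 0.06 to -0.14 (adjusted p 0.00882) for NaCl in vehicle cells after length correction. With single libraries left out, calls ran from 16 to 20 under mifepristone without NaCl, from 18 to 20 with NaCl, from 11 to 17 for NaCl in vehicle cells and from 13 to 17 in mifepristone cells. Library letters did not pair the samples (correlations of same-letter deviations from -0.5 to 0.288, and 0 libraries closest to their own letter). The replicate block gave 18 calls under mifepristone without NaCl, 19 with NaCl, 13 for NaCl in vehicle cells, 14 in mifepristone cells and 5 for the interaction. Low members are limited by depth, with 3 reads standing for 0.061 to 0.072 reads per 1000000.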
